A study of Saccharomyces cerevisiae with 9 samples.

Results

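The baseline transcriptome of wild-type budding yeast in log phase was described from 3 of the 9 RNA sequencing libraries of a study of phospholipid synthesis, those whose labels give the genotype WT. The cells were Saccharomyces cerevisiae of the laboratory strain CEN.PK, labelled as prototrophic, which means that it makes its own amino acids and nucleobases. They were grown overnight and again to log phase in minimal synthetic medium with 2% glucose, and polyadenylated RNA was sequenced. The other groups of 3 libraries each are the strains ect1Δ pct1Δ and cpt1Δ ept1Δ, which lack enzymes that build phosphatidylcholine and phosphatidylethanolamine from choline and ethanolamine, and share the background and medium. The libraries were chosen by label alone, and all 7122 genes with values in the deposited table were described in them. Of the WT libraries, replicate 1 was the deepest with 10948488 counts, and replicates 2 and 3 held 6271188 and 6141426. Levels are FPKM, fragments scaled to gene length and library total, so that genes of different length can be set side by side. The labels do not say whether the 3 libraries of a group are separate cultures, so their spread, and any p-value based on it, may be technical. WT replicate 3 stood apart from the others, with short genes higher and long genes lower, and the means given below include it.

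Yeast with ample glucose ferments it to ethanol even in air, and represses genes for respiration and for other carbon sources. A fast-growing cell puts much of its transcription into ribosomes and glycolytic enzymes. In medium without amino acids, the activator Gcn4 and, for sulfur, the Cbf1 and Met4 proteins drive the genes of amino acid synthesis, while Ino2 with Ino4 drives phospholipid genes when inositol is scarce.

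Markers of the labelled state were checked first. Of the genes that only MATa cells express, MFA2, which encodes the a-factor pheromone, had 2788, 2293 and 2752 FPKM, and STE2, the receptor for alpha-factor, had 634, 618 and 571 FPKM. Of MATalpha genes, STE3, the receptor for a-factor, had 4.59, 5.87 and 3.80 FPKM, and SAG1, the alpha-agglutinin, had 18.3, 17.6 and 17.5 FPKM. Mean levels ran from 10.6 to 2611 FPKM over the 7 MATa genes and from 4.75 to 21.8 FPKM over the 5 MATalpha genes. The lists thus overlapped at 1 MATa gene, ASG7, which had 9.86, 7.34 and 14.7 FPKM. The 5 MATalpha-specific genes together held 0.00528% of the summed FPKM and the 7 MATa-specific genes 0.434%. In bulk RNA, a few cells with much of a transcript and many cells with little cannot be told apart. The marker loci that are often disrupted in laboratory strains were all expressed, with URA3 at 204 ± 17.3, LEU2 at 748 ± 8.48, HIS3 at 321 ± 23.2 and TRP1 at 58.2 ± 7.08 FPKM (SD, n = 3). The 4 genes deleted in the other strains were expressed in WT: CPT1 at 195 ± 5.56, EPT1 at 128 ± 8.75, ECT1 at 110 ± 5.15 and PCT1 at 107 ± 4.01 FPKM (SD, n = 3).

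Sequences are given first for the gene with the highest level and for regulator sites. The gene with the highest mean level, RPL41A (chrIV:130407-130484, minus strand, build R64), and its copy RPL41B (chrIV:221724-221801, minus strand), encode the same very short protein of the large ribosomal subunit. Their coding sequences of 78 bases differ at 1 base, C9T from RPL41A to RPL41B with positions counted from the A of the start codon. That base is in capitals.
RPL41A: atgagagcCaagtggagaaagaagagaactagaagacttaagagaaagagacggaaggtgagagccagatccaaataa
RPL41B: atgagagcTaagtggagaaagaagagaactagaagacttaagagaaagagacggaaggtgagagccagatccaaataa
Core sites of the regulators named above are shown for genes whose levels are given below, each as up to 30 bases of the R64 reference of strain S288C, which is not the strain sequenced. They were found within the 300 bases before the start codon on either strand and are written in the direction of the gene. The Gcn4 letters TGACTC, or their reverse complement, are in capitals for the histidine genes HIS4 (minus strand, 3 matches) and HIS3 (plus strand, 2 matches).
HIS4 at chrIII:68571-68600: aggcagtcgaacTGACTCtaatagTGACTC
HIS4 at chrIII:68515-68544: acccatgcacagTGACTCacgtttttttat
HIS3 at chrXV:721648-721677: ggtgagcgctagGAGTCActgccaggtatc
HIS3 at chrXV:721812-721841: ccacctagcggaTGACTCtttttttttctt
The Cbf1 letters CACGTG are in capitals for the sulfur gene MET17 (plus strand, 1 match, at the far edge of the window).
MET17 at chrXII:732242-732259: CACGTGaagctgtcgata
The Ino2 letters CATGTG, or their reverse complement, are in capitals for the phospholipid genes INO1 (minus strand, 2 matches), CHO1 (minus strand, 1 match) and OPI3 (minus strand, 2 matches).
INO1 at chrX:136159-136188: ggctaaatgcggCATGTGaaaagtattgtc
INO1 at chrX:136094-136123: acttatttaattCACATGgagcagagaaag
CHO1 at chrV:208616-208645: cctttgagctttCACATGgacccatctaaa
OPI3 at chrX:573130-573159: tcaatgagagtgCATGTGgaaagttgcacc
OPI3 at chrX:573066-573095: tatgcaaacccaCACATGcatcgttggttt

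The 30 genes with the highest mean level were mostly those for ribosomal proteins and for glycolysis and fermentation. Of the 30, 19 encode cytosolic ribosomal proteins and 8 belong to glycolysis or fermentation. The remaining 3 were CCW12, which encodes an abundant cell wall mannoprotein, TMA19, a ribosome-associated protein, and YDR524C-B, which the table names by its systematic name only. RPL41A had 15471, 14523 and 21741 FPKM. TDH3, the main glyceraldehyde-3-phosphate dehydrogenase, had 15481, 16988 and 17156 FPKM. RPL41B had 11372, 11394 and 16736 FPKM, and FBA1, the fructose-bisphosphate aldolase, had 11592, 12300 and 12658 FPKM. The order of RPL41A and TDH3 differed between libraries, since TDH3 was the higher in replicates 1 and 2 and RPL41A in replicate 3.

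Below these came CCW12 at 10011 ± 108, the enolase gene ENO2 at 9350 ± 426 and the pyruvate decarboxylase gene PDC1 at 8552 ± 625 FPKM (SD, n = 3). RPS31, which encodes a fusion of ubiquitin with a small-subunit protein, had 7471, 7392 and 9383 FPKM. ADH1, the alcohol dehydrogenase that makes ethanol, had 7371, 8086 and 7979 FPKM. Of 30 pairs of neighbours in the order of mean level, 28 overlapped in their ranges over the libraries, so that the order within the list is loose. Membership was firmer: 28 of the 30 genes were among the 30 highest in every library. YDR524C-B (chromosome IV, 1489598 to 1489798) had 4648, 4271 and 4384 FPKM, and its neighbour YDR524W-C (1489403 to 1489492, on the other strand) had 3868, 3545 and 4226 FPKM, a similar level from a reading frame that does not overlap it.

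Level per length and number of counts gave different lists. The median length of the 30 genes was 430.5 bases against 1191 for all ORFs, and 14 of the 30 were also among the 30 genes with the most counts. TDH3 led by counts, with PDC1, FBA1 and ENO2 behind it, while RPL41A was at place 110 and RPL41B at place 177. The lengths of ORFs in the table are coding lengths without untranslated regions, so the FPKM of genes as short as RPL41A depends on how the authors assigned fragments that reach beyond the coding sequence, a step not stated in the labels or the table.

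**Figure D1:**
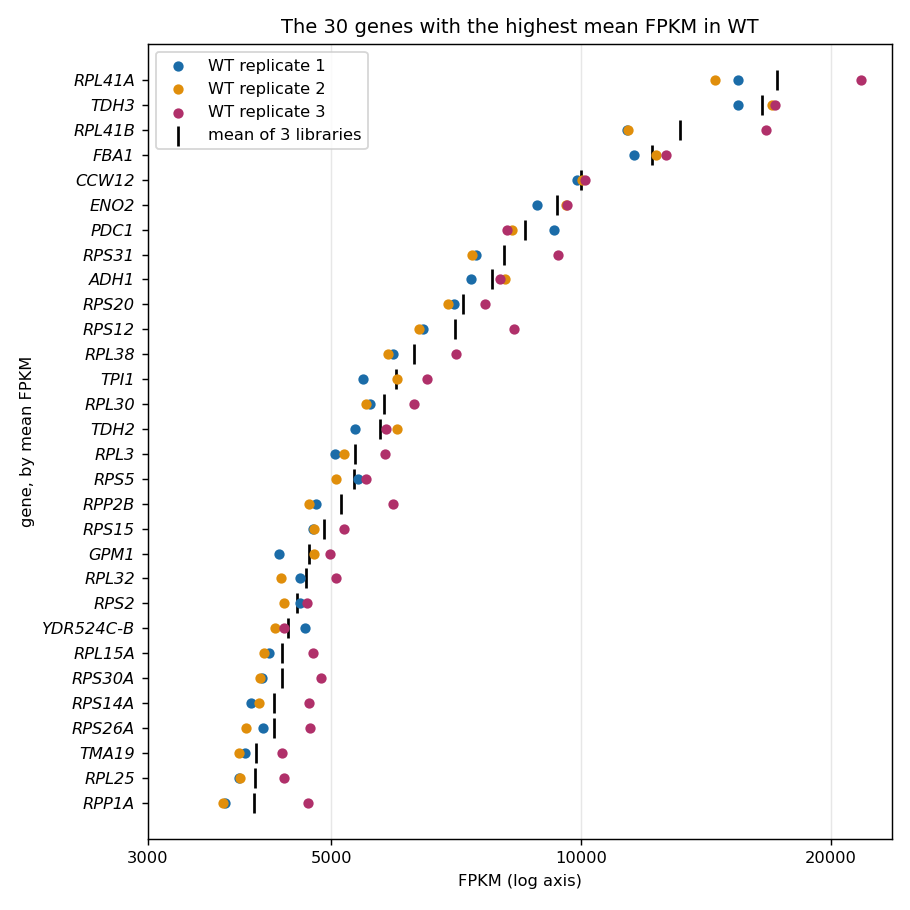
FPKM on a log axis for the 30 genes with the highest mean level, with a coloured point for each of the 3 WT libraries and a black tick for their mean. RPL41A and TDH3 exchange places between libraries, and replicate 3 is the highest library for all 19 ribosomal protein genes shown, such as RPS31 at 9383 against 7471 and 7392.

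A small part of the genes held much of the summed level. The 10 highest genes held 9.11, 9.29 and 10.1% of the summed FPKM in replicates 1, 2 and 3, and 50% of it lay in 180, 181 and 162 genes. The median ORF had 42.6 FPKM, with 5.98 at the tenth percentile and 296 at the ninetieth. ORFs other than dubious ones held 97.7% of the summed FPKM, dubious ORFs 2.16% and noncoding RNAs 0.165%, the last in libraries selected for polyadenylated RNA. Some dubious ORFs lie opposite abundant genes, such as YKL153W, at 1555 FPKM, opposite GPM1. Whether the share of dubious ORFs holds fragments of those genes was not tested.

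Ribosomal proteins took the largest share of any list examined. The 137 genes for cytosolic ribosomal proteins held 32.9, 32.3 and 35.8% of the summed FPKM, with a median of 2599 FPKM per gene against 42.6 for all ORFs. None of the 137 was silent, and the lowest, RPL15B, had 80.5, 86.1 and 87.4 FPKM. By counts, where length is not divided out, the same genes held 17.4%, with a median length of 432 bases against 1191 for all ORFs. The 69 mitochondrial ribosomal protein genes, whose products serve the organelle, held 0.585 ± 0.00934% with a median of 88.9 FPKM. Among translation factors, TEF2 and TEF1 (elongation factor 1A) had 3231 ± 188 and 2624 ± 136 FPKM, and YEF3, the fungal elongation factor 3, had 2786 ± 107 FPKM (SD, n = 3). TEF1 and TEF2 differ at 2 of 1377 bases and 19.6% of their 100-base windows occur once in the genome, so their separate levels are uncertain. Ribosome biogenesis genes were lower, at a median of 143 FPKM over 45 genes, with NOP1, the rRNA methyltransferase fibrillarin, at the top with 1071 ± 27.6 FPKM (SD, n = 3).

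Spliced genes held a large share, most of it through the ribosome. The 271 ORFs with an annotated intron held 21.1 ± 0.760% of the summed FPKM (SD, n = 3), of which the 89 ribosomal protein genes among them held 18.3%. The other 182 held 2.83% at a median of 70.7 FPKM, against 41.2 FPKM for the 5544 ORFs without an intron.

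The genes of glycolysis differed widely in level from step to step. The 22 genes for glycolysis and gluconeogenesis held 5.27, 5.78 and 5.43% of the summed FPKM, and together with the 15 for fermentation and acetate 7.09 ± 0.271% (SD, n = 3). Hexokinase is the entry step, and HXK2, its glucose-grown form, had 705 FPKM on average. The phosphofructokinase subunits PFK1 and PFK2, which make the committed step, had 509 and 411 FPKM. Levels were many times higher for these genes from aldolase downward: FBA1 at 12184 ± 543, TPI1 (triose phosphate isomerase) at 5988 ± 528, TDH3 at 16542 ± 923, GPM1 (phosphoglycerate mutase) at 4693 ± 335 and ENO2 at 9350 ± 426 FPKM (SD, n = 3). Pyruvate kinase, encoded by CDC19, had 2497, 2732 and 2320 FPKM. The dubious ORFs on the other strand of CDC19 and GPM1 cover 64.1 and 62.9% of them, and whether the counting used strand is not given, so these 2 levels are uncertain.

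The genes of enzymes that reverse glycolysis were low. FBP1, fructose-1,6-bisphosphatase, had 5.58, 4.26 and 2.95 FPKM, and PCK1, phosphoenolpyruvate carboxykinase, had 4.15, 3.38 and 2.27 FPKM. The 17 glucose-repressed genes of other carbon sources held 0.0167% of the summed FPKM at a median of 6.98 FPKM. ADH2, the ethanol-consuming alcohol dehydrogenase, had 13.9, 13.9 and 18.0 FPKM, and MLS1, the malate synthase of the glyoxylate cycle, had 1.92, 2.30 and 2.25 FPKM. GAL7, of galactose use, had 0.457 ± 0.0379 FPKM (SD, n = 3). Invertase SUC2, at 44.3 ± 2.46 FPKM, was the highest of the 16 genes for galactose, maltose and sucrose.

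Among glucose transporters the low-affinity HXT3 and HXT1 led. HXT3 had 1116, 1050 and 1031 FPKM, HXT1 had 338, 353 and 301 FPKM and HXT4 had 204, 212 and 201 FPKM. These 3 were separated without overlap. HXT2 was at 19.4 ± 0.940 FPKM, and HXT6 and HXT7, the high-affinity transporters, were at 1.28, 0.930 and 1.14 FPKM and 1.23, 0.930 and 1.24 FPKM. The coding sequences of HXT6 and HXT7 differ at 3 of 1713 bases, and 7.71% of their 100-base windows occur once in the genome, so reads that match both may be missing from these values. Of the 19 transporters and sensors, 5 were under 1 FPKM in all 3 libraries.

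Respiratory genes were expressed at levels above that of the median ORF. The 37 genes of oxidative phosphorylation held 1.39 ± 0.00886% of the summed FPKM (SD, n = 3) with a median of 413 FPKM, and the 30 of the tricarboxylic acid cycle held 0.446% with a median of 153 FPKM. CYC1, the main cytochrome c gene, had 969, 989 and 1185 FPKM, and the ATP synthase gene ATP2 had 883 ± 55.2 FPKM (SD, n = 3). QCR8, a subunit of the cytochrome bc1 complex, stood apart from its list with 2, 4 and 1 counts. Its reading frame overlaps no other gene and all its windows occur once in the reference.

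**Figure D2:**
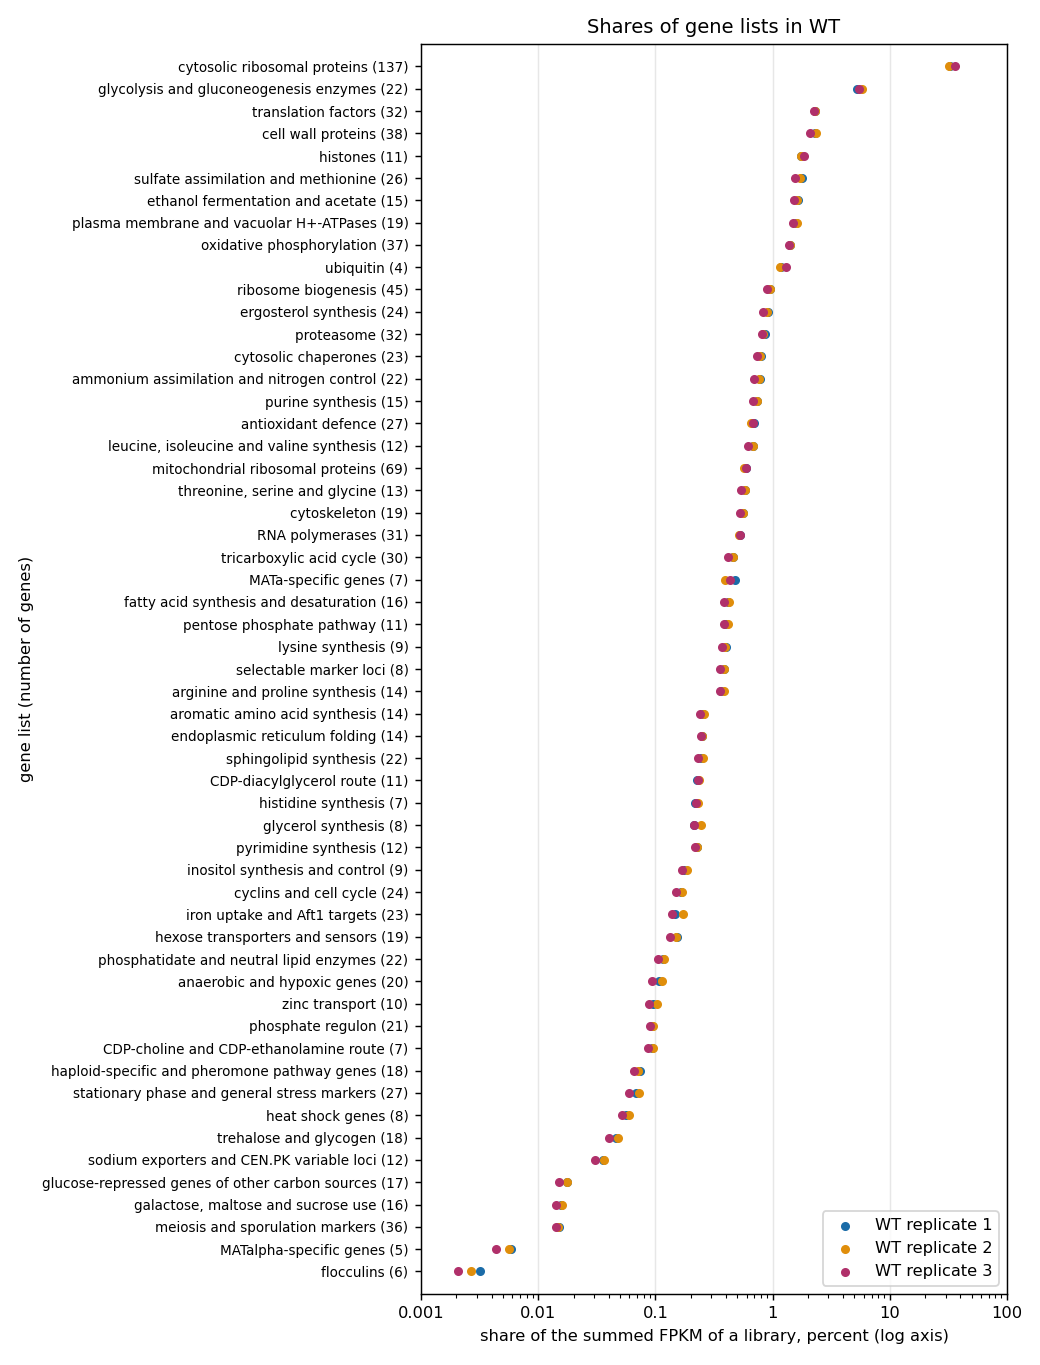
Share of the summed FPKM of a library on a log axis for each of 55 gene lists, ordered by their mean, with the number of genes in brackets and a point per WT library. Cytosolic ribosomal proteins lead at 32.3 to 35.8%, and flocculins, MATalpha-specific genes and meiosis markers are at the bottom, with the libraries close together for nearly every list.

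Genes of amino acid synthesis were expressed in every list. The lists for amino acid synthesis, 95 genes together, held 4.27, 4.24 and 3.89% of the summed FPKM. Sulfate assimilation and methionine led with 1.68 ± 0.122% over 26 genes (SD, n = 3). MET6, the cobalamin-independent methionine synthase, had 4073, 3830 and 3498 FPKM, and MET17, which makes homocysteine from sulfide, had 2320, 2267 and 2223 FPKM. The S-adenosylmethionine synthetases SAM2 and SAM1, which supply methyl groups for phosphatidylcholine among other products, had 2751 ± 41.9 and 1742 ± 81.9 FPKM. SAH1, which breaks down the product of methylation, had 1979 ± 84.1 FPKM (SD, n = 3).

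In other amino acid routes the levels were uneven. ILV5, an enzyme of branched-chain synthesis and also a mitochondrial DNA protein, had 2807 ± 40.1 FPKM, and the next in its list, BAT1, had 937 ± 51.1 FPKM. SHM2, the cytosolic serine hydroxymethyltransferase, had 2571, 2611 and 2556 FPKM. In the histidine pathway HIS1 had 989, 1046 and 1130 FPKM, HIS4 had 506, 536 and 502 FPKM and HIS6 had 68.9, 64.5 and 78.3 FPKM, so enzymes of a single route differed by an order of magnitude. Of ammonium assimilation, GLN1, glutamine synthetase, had 3382 ± 177 and GDH1, the NADP glutamate dehydrogenase, 2508 ± 57.0 FPKM (SD, n = 3). The lowest genes of their lists act in amino acid breakdown: CAR2, of arginine degradation, had 5.58 ± 1.33 FPKM (SD, n = 3) and ARO9, an aromatic aminotransferase, had 1.01, 1.34 and 0.740 FPKM.

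The letters of the core sites printed above were counted over the same 300-base window of every gene, on both strands. TGACTC lay upstream of 50 of the 95 genes for amino acid synthesis (52.6%) and of 466 of 5852 ORFs (7.96%). CACGTG lay upstream of 8 of the 26 sulfur genes (30.8%) and of 3.61% of all ORFs. CATGTG, which differs from CACGTG in 1 letter and so cannot match the same position, lay upstream of 7 of the 11 genes of the CDP-diacylglycerol route (63.6%) and of 7.18% of all ORFs. The share with the letters CTTCC of the glycolytic regulator Gcr1 was 68.2% of glycolytic genes against 44.9% of all ORFs, and that with the letters ACCCNNACA of Rap1, an activator of ribosomal protein genes, was 16.1% of ribosomal protein genes against 3.13%. Within the amino acid lists the median level was 307 FPKM with TGACTC and 348 FPKM without it. These are matches of letters in the reference and not measured binding.

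Genes of both phospholipid routes, the subject of the study, had medians above that of all ORFs, which was 42.6 FPKM. The median was 155 FPKM in the CDP-diacylglycerol route and 110 FPKM in the CDP-choline and CDP-ethanolamine route. That of the 22 phosphatidate and neutral lipid enzymes was 39.5 FPKM, below the median of all ORFs. The CDP-diacylglycerol route, which builds phosphatidylcholine by methylation, held 0.225, 0.235 and 0.230% over 11 genes, and the CDP-choline and CDP-ethanolamine route held 0.0932, 0.0947 and 0.0860% over 7 genes. OPI3, the last methyltransferase, had 967, 1013 and 1084 FPKM, and CHO1, phosphatidylserine synthase, had 499, 539 and 572 FPKM. CHO2, the methyltransferase that acts on phosphatidylethanolamine, had 220, 236 and 236 FPKM. In the other route, the choline and ethanolamine permease gene HNM1 had 424, 424 and 411 FPKM, and the kinases CKI1 and EKI1 had 56.9 ± 4.94 and 43.0 ± 4.19 FPKM (SD, n = 3). The ranges of ECT1 and PCT1 overlapped, and CPT1 was above EPT1 in every library.

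INO1 was low beside the inositol transporter. INO1, which makes inositol phosphate and is strongly induced when inositol is lacking, had 59.1, 73.0 and 78.2 FPKM, and the inositol transporter gene ITR1 had 1215, 1289 and 1179 FPKM. PAH1, the phosphatidate phosphatase, had 21.7, 21.9 and 18.9 FPKM, and DGK1, the diacylglycerol kinase that opposes it, had 123, 128 and 119 FPKM. DGK1 was the higher in all 3 libraries. In sterol synthesis ERG25, a C-4 methyl oxidase, led with 1473 ± 81.0 and ERG11, the lanosterol demethylase, followed with 1033 ± 48.2 FPKM, and among fatty acid genes ACB1, which carries acyl-CoA, had 1066 ± 62.0 and the desaturase gene OLE1 863 ± 76.4 FPKM (SD, n = 3).

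Among genes of the cell surface, the proton pump gene PMA1 had 3756, 3792 and 2930 FPKM, with replicate 3 below the other libraries. The wall protein genes CWP2 and ECM33 had 2952 ± 63.6 and 1628 ± 152 FPKM (SD, n = 3). Histones had a median of 2270 FPKM over 11 genes, from HHT2 (histone H3) at 3207 ± 150 down to CSE4, the centromeric variant, at 54.5 ± 2.67 FPKM. Stress and sporulation genes were low: 27 stationary phase and stress markers held 0.0669% at a median of 17.0 FPKM, and 36 meiosis and sporulation markers held 0.0146% at a median of 4.01 FPKM. SPG4, of stationary phase, had 2.89, 2.75 and 0.470 FPKM. The general stress list was led by STF2 at 159 ± 19.2 FPKM, and the hypoxic list by OLE1, which is also a gene of normal lipid synthesis.

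Most families of related genes had 1 leading member. Of 77 families, 51 had a member at least 2-fold above the next in all 3 libraries, and in 29 the ratio was at least 10-fold on average. The eIF5A family, in both counts, rests on HYP2, which is listed at 0 as described below. In each of the 75 families without a gene deleted in a strain, the same gene was highest in all 9 libraries. The median ratio of the highest to the next member was 5.09-fold.

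In central carbon metabolism several ratios were very large. PDC1 was 386-fold above PDC5, with a log2 ratio of 8.59 ± 0.16 (SD, n = 3). CDC19 was 193-fold above PYK2, GND1 472-fold above GND2, TAL1 269-fold above NQM1 and ACS2 93.3-fold above ACS1. TDH3 was 2.89-fold above TDH2 and held 73.6% of the FPKM of its family, while TDH1 had 210, 246 and 233 FPKM. ENO2 was 8.24-fold above ENO1. HXK2 was 20.3-fold above GLK1, and HXK1, a hexokinase that glucose represses, was at 2.13, 2.62 and 3.80 FPKM. Near-identical copies limit some of these ratios: TDH2 and TDH3 differ at 42 of 999 bases, yet 88.5% of the windows of TDH2 occur once.

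Outside carbon metabolism, other families had ratios as large. GDH1 was 616-fold above GDH3, PMA1 482-fold above PMA2 and YEF3 669-fold above HEF3. CYC1 was far above CYC7, at 969, 989 and 1185 against 2.67, 0.930 and 0.950 FPKM. Among chaperones, SSA2 was 12.1-fold above SSA1 and HSC82 10.3-fold above HSP82, although 56.4% of the windows of SSA2 occur once. Another gene overlaps 33.6% of SSA1. Mitochondrial citrate synthase CIT1 was below its peroxisomal relative: CIT2 had 578, 559 and 513 FPKM and CIT1 had 127, 127 and 122 FPKM. Families with small ratios included the phosphofructokinase subunits, both needed in 1 complex, and all core histone pairs, with HHF2 1.15-fold and HHT2 1.41-fold above their copies.

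Pairs of ribosomal protein genes had smaller ratios than these families. Of 57 pairs, 11 had a member at least 2-fold above the other in all 3 libraries and 32 had an average ratio below 1.5-fold, with a median of 1.43-fold. The higher copy was the A gene in 32 pairs and the B gene in 25. The most uneven pair was RPL15, with RPL15A at 4199, 4141 and 4744 and RPL15B at 80.5, 86.1 and 87.4 FPKM. RPS14A was 7.22-fold above RPS14B and RPS9B 6.75-fold above RPS9A. Among the most even pairs were RPL12, RPL4 and RPL40, with log2 ratios of 0.02 ± 0.0044, 0.02 ± 0.015 and 0.03 ± 0.011 (SD, n = 3). Both RPL12 genes are 62.4% covered by a dubious ORF, so that pair is uncertain. RPL41A was above RPL41B by a log2 ratio of 0.44, 0.35 and 0.38, although the level of both was highest in replicate 3. Their coding sequences differ at 1 of 78 bases, so this ratio is uncertain.

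**Figure D3:**
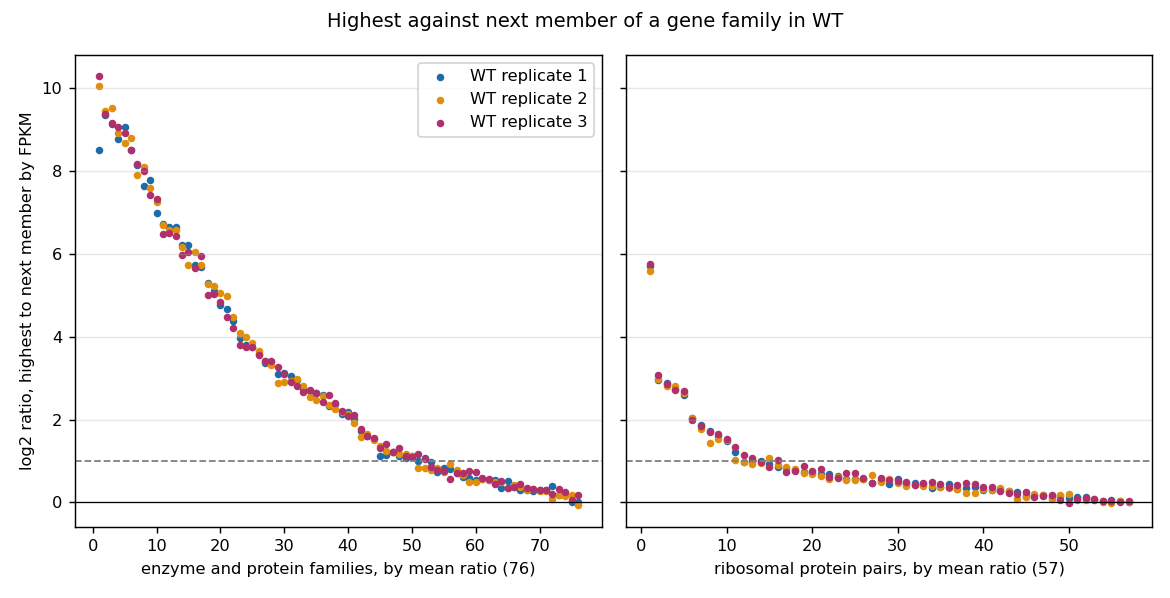
Log2 ratio of the highest to the next member by FPKM, for 76 enzyme and protein families at left and 57 ribosomal protein pairs at right, each ordered by its mean, with a point per WT library; the dashed line is the 2-fold ratio and the eIF5A family, with a member listed at 0, is left out. Enzyme families spread up to the ratio of YEF3 to HEF3 at 669-fold and beyond, while a single ribosomal pair, RPL15, is past 10-fold.

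Silent genes were few among ORFs and had features in common. In all, 461 of 7122 genes had 0 counts in all 3 WT libraries, and 356 of these had 0 counts in all 9. A count of 0 allows a level of up to 0.274, 0.478 and 0.488 CPM (counts scaled to the library total) in replicates 1, 2 and 3, for counting error only. By class, 108 of 5853 ORFs were silent (1.85%), 134 of 747 dubious ORFs, 155 of 386 noncoding RNAs, 31 of 90 transposable element genes and 33 of 46 genes of the mitochondrial genome. Noncoding and mitochondrial RNAs mostly lack the poly(A) tails by which the RNA was selected. No gene that was silent in WT had 10 or more counts in a library of a deletion strain.

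Silence among ORFs went with overlap, repeated sequence and chromosome ends. Of 35 ORFs that lie wholly within another annotated gene, 34 were silent, among them 32 of 32 that lie within a gene on the other strand, against 56 of 5167 ORFs without overlap (1.08%). Of 57 ORFs in which no 100-base window occurs once in the genome, 34 were silent, against 52 of 5543 with all windows unique (0.938%). Of 134 ORFs under 10 kb from a chromosome end 33 were silent (24.6%), against 56 of 5455 beyond 30 kb (1.03%). Where an ORF had no overlap and all windows unique, 23 of 4930 were silent (0.467%). The part of the authors' counting in these zeros was not tested, since the deposited table holds no reads.

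**Figure D4:**
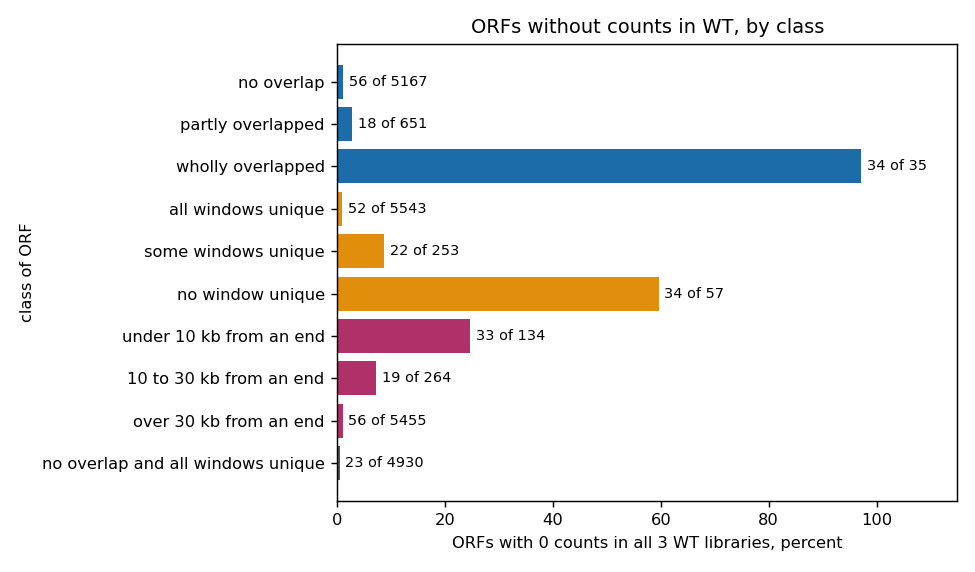
Percent of ORFs with 0 counts in all 3 WT libraries, for classes by overlap with another gene (blue), by windows of 100 bases that occur once in the genome (orange), by distance to a chromosome end (purple) and for ORFs with no overlap and all windows unique (grey). The bar for ORFs wholly within another gene reaches 34 of 35, and that for ORFs with no overlap and all windows unique 23 of 4930.

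The clearest case is HYP2, which encodes the translation factor eIF5A, essential and abundant in yeast. HYP2 (chromosome V, 85676 to 86149, plus strand) was listed at 0 in every library. The dubious ORF YEL034C-A (85613 to 86215, minus strand), which contains it, had 13962, 6781 and 7815 counts, or 2115, 1793 and 2110 FPKM. Its anaerobic copy ANB1 had 1.73, 0.670 and 1.72 FPKM. The same arrangement held for DID2 (chromosome XI, 507939 to 508553, plus strand), an endosomal sorting gene at 0 in all libraries, within the dubious ORF OPI8 (507920 to 508561, minus strand) with 270, 161 and 163 counts. The metallothionein genes CUP1-1 and CUP1-2, also at 0, are both repeated and wholly overlapped. In the deposited table a 0 for such genes cannot be read as absence of their RNA.

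None of the 10 longest silent genes with a symbol lies wholly within another gene. They were PDR18, ENA5, ENA2, RDS1, ARN2, SEO1, IMA3, AYT1, AIF1 and AAD3. PDR18, a drug transporter, spans 4002 bases and SEO1, a permease, 1782 bases, each with all windows unique and 0 counts in all 9 libraries. ENA2 and ENA5, sodium exporters of a repeated cluster, have 1.40 and 13.4% unique windows, and ENA1 beside them had 0.750, 0.780 and 0.990 FPKM. In the same list of loci that vary between laboratory strains, the aquaporin gene AQY2 had 392, 402 and 361 FPKM. Also silent were the MATalpha genes MATALPHA1 and MATALPHA2, of which no window occurs once in the reference, and the asparaginase genes ASP3-1, ASP3-2 and ASP3-3, which are repeats.

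Zeros ran together along the chromosomes. In 6 stretches, 18 neighbouring ORFs with mostly unique sequence had no count in any of the 9 libraries. The longest by number of genes lies on chromosome III, 307801 to 316188, and holds PAU3, ADH7, RDS1, AAD3 and YCR108C, 0.432 kb from the end. Others hold ARN2, PAU13 and YHL045W on chromosome VIII (8351 to 12849) and PDR18 and YNR071C on chromosome XIV (765375 to 771468). Whether these stretches are present in the genome of this strain was not tested. In the WT libraries they cannot be told apart from genes that are present and not transcribed.

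Replicates were close for most genes, and replicate 3 stood apart. Over 5438 genes with a mean of at least 50 counts, the median SD of log2 CPM was 0.10, and 0.06 without replicate 3. The biological coefficient of variation, the spread beyond counting error as estimated by edgeR, was 6.94% for the WT libraries and 3.98% without replicate 3, against 6.27% for ect1Δ pct1Δ and 5.50% for cpt1Δ ept1Δ. Without replicate 1 or 2 it was 8.06 and 8.16%. For genes of 50 to 200 counts the median SD was 0.17 against 0.13 from counting alone, and for those with 5000 or more counts 0.08 against 0.02.

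The difference of replicate 3 followed gene length. Each library was set against the mean of the other libraries of its group, as a difference of log2 CPM. In replicate 3 the median difference was 0.20 for genes under 300 bases, 0.17 from there to 600 bases, 0.07 up to 1200, -0.06 up to 2400 and -0.13 for longer genes. Short genes were thus higher and long genes lower in it. The correlation of the difference with log2 length over the 5438 genes was -0.51 in replicate 3, 0.31 in replicate 1 and 0.34 in replicate 2, as a description, since genes are not replicates and each library enters the mean of the others. It was -0.40 in ect1Δ pct1Δ replicate 2, so a library of another group shared the pattern. Allowing each length class its own level per library, an alternative added after the data were seen, brought the coefficient of variation to 5.22% in WT, against 5.03 and 5.24% in the other groups.

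**Figure D5:**
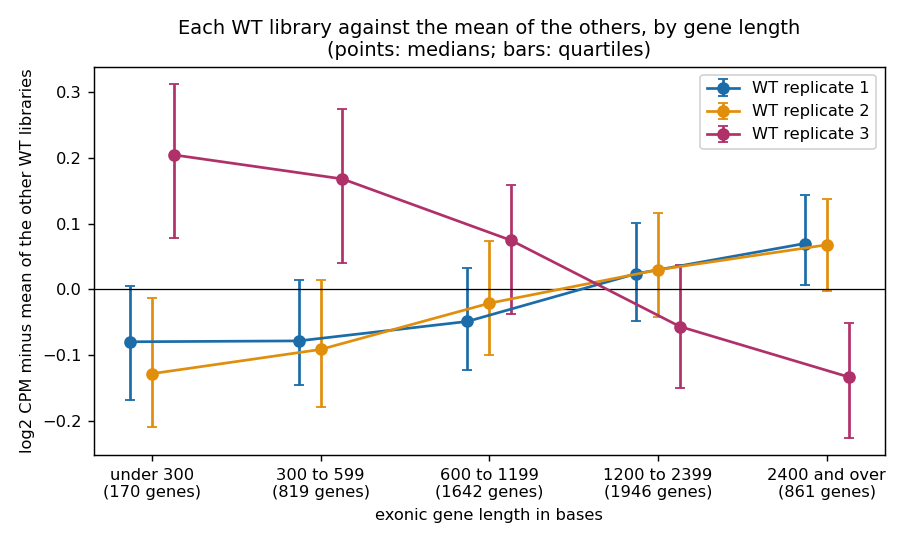
Difference of log2 CPM between each WT library and the mean of the other WT libraries, by class of exonic gene length, with medians as points and quartiles as bars. Replicate 3 falls from 0.20 in the shortest class to -0.13 in the longest, while replicates 1 and 2 run the other way.

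Ribosomal protein genes, which are short, moved with this difference. All 137 were higher in replicate 3 than in the mean of the other libraries, by a median of 0.22, and beside genes of like length 105 of 137 were higher, by a median of 0.07. Histone genes were higher by 0.18, and by 0.00 beside genes of like length. Cell wall genes were lower by -0.17 and by -0.15 beside genes of like length, with 3 of 35 higher. Iron uptake genes were higher in replicate 2, by 0.26 beside genes of like length, and ARN1, a siderophore transporter, had 106, 138 and 109 FPKM. The part of gene length in each single gene's level was not tested.

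The widest spread was in RNAs without poly(A) tails. Mitochondrial 21S_rRNA had 45, 146 and 93 counts, the signal recognition particle RNA SCR1 had 110, 240 and 246 counts and the small nucleolar RNA snR17a had 39, 83 and 85 counts. Replicate 1, the deepest WT library, was the lowest WT library in all 3. Among ORFs the widest was FLO10, a flocculin of 3510 bases, at 3.59, 2.45 and 1.25 FPKM. CDD1, cytidine deaminase, had 208, 86 and 48 counts and BSC1 had 484, 241 and 122 counts, both lowest in replicate 3. CHA1, the serine and threonine deaminase, had 118, 61 and 100 counts, and was highest in CPM in replicate 3.

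Few of the genes described were called against the deletion strains. By the quasi-likelihood test of edgeR, with p-values adjusted after Benjamini and Hochberg, 28 of 6083 genes (0.46%) differed between ect1Δ pct1Δ and WT and 8 (0.132%) between cpt1Δ ept1Δ and WT, the deleted genes included. Of the 30 highest genes none was called in either comparison, while 1 in each had an unadjusted p under 0.05. DESeq2 and limma also called 0 of them in each. The deleted genes left out, of 298 tested members of families and ribosomal pairs, 5 (1.68%) were called in ect1Δ pct1Δ and 1 (0.336%) in cpt1Δ ept1Δ. Both comparisons share the WT libraries, so they are not independent.

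The called family members were ZRT1, HXT4, IMD2, TDH1 and FAA1 in ect1Δ pct1Δ and ZRT1 in cpt1Δ ept1Δ. ZRT1, the high-affinity zinc transporter, was lower in ect1Δ pct1Δ by a log2 fold change of -0.88 (SE 0.13, edgeR adjusted p = 0.00121) and in cpt1Δ ept1Δ by -0.92 (SE 0.12, edgeR adjusted p = 0.00129). IMD2, IMP dehydrogenase, was higher in ect1Δ pct1Δ by 0.79 (SE 0.06, edgeR adjusted p = 1.74e-07). TDH1 was higher there by 0.61 (SE 0.10, edgeR adjusted p = 0.00404), and remained far below TDH2 and TDH3. FAA1, an acyl-CoA synthetase, was higher by 0.32 (edgeR adjusted p = 0.0138) and HXT4 lower by -0.26 (edgeR adjusted p = 0.0461). The call of HXT4 was lost under 10 of 15 alternatives and that of FAA1 under 3. In the wider lists, of 1086 tested members 12 (1.10%) were called in ect1Δ pct1Δ and 2 (0.184%) in cpt1Δ ept1Δ. The shares over all tested genes, the deleted ones included, were 0.46% and 0.132%. These lists were chosen with earlier results of these data known. Among the called members was KAR2, the folding chaperone of the endoplasmic reticulum, lower in both by -0.26 and -0.35 (edgeR adjusted p = 0.0322 and 0.00499). The call of KAR2 in ect1Δ pct1Δ was lost under 7 of 15 alternatives, with an edgeR adjusted p of up to 0.220 without ect1Δ pct1Δ replicate 1. In cpt1Δ ept1Δ it was lost under 1, with 0.0815 without cpt1Δ ept1Δ replicate 2.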

How the data were processed

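RNA from 9 libraries of log-phase yeast was sequenced after poly(A) selection, per the labels' protocols. Reads were handled with HISAT2 2.2.1, HTSeq 0.6.1 and the genome build R64, per the submitters' processing notes. The strand setting and the treatment of reads with several matches were not given in the sources used here. Raw counts per gene and the authors' FPKM values make up the deposited table, and 99.9% of 64098 FPKM values matched those computed here from count, length and library total (tolerance 0.0051, or 0.002 of the value). All ORF lengths are multiples of 3 and so are coding lengths. The table has 6 columns of libraries that match no sample, which were not used.

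FPKM values were described as deposited, with means and SDs over 3 libraries. RefSeq's R64 annotation, the source of introns and sequences, held 6045 identifiers of the table (84.9%). Silent means 0 counts in all 3 WT libraries. A window is unique if its 100 bases occur once in the reference. Libraries were compared by log2 CPM from edgeR 4.0.16 (R 4.3.3), and strains by its quasi-likelihood test over all 9 libraries with Benjamini-Hochberg adjustment at 0.05, after a filter that left 6083 genes. It was tested on simulated data. Alternatives were DESeq2 1.42.0, limma 3.58.1 on log2(FPKM + 1), other scaling and filters, a replicate block and leaving out each library.

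The gene lists, families and tests were chosen with earlier results of these data known. Of 1175 list entries 1174 matched. Named were the 30 highest genes, the 5 highest and 3 lowest genes of each list, family members, the most and least even ribosomal pairs, the 10 genes with the widest spread, those highest or lowest in replicate 3, the 10 longest silent genes and called members. Other genes, among them YDR524W-C, QCR8, DID2, the ASP3 and CUP1 genes and those of the silent stretches, were chosen after their values were seen. Some genes that this rule names are not reported here.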

Additional observations from a re-analysis of the deposited data

How the results depend on the processing

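By raw counts in place of FPKM the 10 highest genes held 10.4% and cytosolic ribosomal proteins 17.4% of the total, and 50 of 54 other list shares moved by more than 1 SD. Leaving out 1 of 3 WT libraries cannot move a mean by 1 SD of the same 3 values. It was therefore no test of these 54 shares or of 133 family ratios. A pseudocount of 1 FPKM and raw counts each moved 15 of the 133 ratios by more than 1 SD. The WT coefficient of variation ran from 3.98 (without replicate 3) to 8.16% when a library was left out. In ect1Δ pct1Δ 17 to 40 genes were called when a library was left out. The fewest were called without WT replicate 1 and the most without WT replicate 3. In cpt1Δ ept1Δ 4 to 9 were called, with 4 without cpt1Δ ept1Δ replicate 2. DESeq2 called 17 genes in cpt1Δ ept1Δ against 8. The cause of these shifts was not tested. Correlations of same-numbered libraries between groups ran from -0.26 to 0.25. Libraries of different number were not compared, so whether replicate numbers pair the libraries was not settled. With a replicate block 23 and 7 genes were called. Of the members called in ect1Δ pct1Δ, HSP30, IMD2, STF2, TDH1 and ZRT1 were called under all 15 alternatives, as was ZRT1 in cpt1Δ ept1Δ. By systematic name STF2 (YGR008C) is next to ECT1 (YGR007W), which is deleted in ect1Δ pct1Δ. An effect of the deletion on its neighbour was not tested. Depth limits silence: WT silent genes numbered 461, 662 if up to 3 counts summed over the libraries are allowed, and 492 to 540 when a library was left out.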
